A study of Mus musculus with 4 samples.

Results

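The chemokine system of the mouse skull vault was described as 57 genes, 39 ligands and 18 receptors, of the 23946 genes measured. They were taken by name, as every symbol that starts with Ccl, Cxcl, Ccr or Cxcr and a digit, together with *Cx3cl1*, *Cx3cr1*, *Xcl1* and *Xcr1*. The rule uses names and no measured level, though it was set with earlier results of these data known. RNA from frontal and parietal bones of C57BL/6J mice at postnatal day 21 was sequenced in 4 libraries, 1 each for wild-type (WT) frontal, WT parietal, *Twist1*+/- frontal and *Twist1*+/- parietal bone, with 12 mice per strain and no treatment named in the labels. *Twist1*+/- mice are heterozygous for loss of the bHLH factor *Twist1*. The frontal bone comes from neural crest cells and the parietal bone is of mesodermal origin, and neither the sex of the mice nor the number pooled in a library is given in the sources used here.

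Chemokines are small secreted proteins that draw cells along a gradient by way of G protein-coupled receptors, and they are named C, CC, CXC or CX3C for the spacing of their first cysteines. In bone, *Cxcl12* made by marrow stromal cells and osteoblast-lineage cells holds *Cxcr4*-bearing blood precursors in the marrow, while CC ligands and their receptors move monocytes, which are also the precursors of osteoclasts. Atypical receptors such as *Ackr3* bind chemokines and remove them without signalling through G proteins. The comparisons address how the chemokine genes differ with the *Twist1*+/- genotype in each bone and between the bones of each genotype.

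Expression is given as FPKM, a deposited read level corrected for transcript length and library size, a scale on which genes of unlike length can be compared. With 1 library per condition there is no replicate error, so no test was made, no p-value is given, and each difference compares 2 libraries. A gene was called when its values differed by more than 3-fold and the higher one reached 1 FPKM. The depth of a library is not known from FPKM, but low values of a pair of libraries gathered weakly at 1 ratio (10.1% to 10.97% of 513 to 776 genes, against 1.98% to 2.19% elsewhere). By it, 1 read was worth 1.30 times as many FPKM in *Twist1*+/- frontal as in WT frontal bone, 1.30 times as many in WT parietal as in *Twist1*+/- frontal bone, and 0.986 times as many in the library labelled *Twist1*+/- parietal as in WT parietal bone. WT frontal bone was by this estimate the deepest library, though *Twist1*+/- frontal bone listed more genes above 0 (19452 against 18677). Differences among the lowest members may not be detectable at these depths.

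*Twist1* itself was at 59.0 FPKM in WT frontal, 30.4 in *Twist1*+/- frontal, 52.5 in WT parietal and 50.7 in the one labelled *Twist1*+/- parietal. The last library lay close to WT parietal bone in this gene, and each direction given for that library rests on its label. All 10 osteoblast and osteocyte markers were above 0 in every library, and their summed level was between 10926 and 19103 FPKM. WT parietal bone stood apart in other ways. It alone lists the collagen genes *Col1a1* and *Col1a2* above 0, at 5595 and 6326 FPKM. Their 0 in the other libraries may not be read as absence, as the osteoblast marker *Bglap* was at 5220 to 7982 FPKM in every library. Why these values are listed at 0 was not tested. The summed level of 10 meninges and brain markers was 118 FPKM in WT parietal bone against 664 to 2293 FPKM in the other libraries.

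The upstream sequences of 5 members are shown because, once their values were seen, their levels differed clearly between libraries, *Ccl12*, *Ccl8* and *Ccl9* being highest in WT parietal bone and *Cxcl9* and *Cxcl10* highest in WT frontal bone. Each is the 250 bases before the start of the gene, 5′ to 3′ on the strand of the gene, from RefSeq on GRCm38.p6, and 41 of the 57 members have an entry in that set. Capitals mark matches on either strand to the letters GGG, any 5 bases and CC, a loose form of the NF-kB motif, or to GAAA, any 2 bases and GAAA, the core of the interferon response element. The windows are chr11:82101595-82101844 (+) for *Ccl12*, chr11:82114935-82115184 (+) for *Ccl8*, chr11:83578637-83578886 (-) for *Ccl9*, chr5:92328080-92328329 (-) for *Cxcl9* and chr5:92348890-92349139 (-) for *Cxcl10*.
*Ccl12*: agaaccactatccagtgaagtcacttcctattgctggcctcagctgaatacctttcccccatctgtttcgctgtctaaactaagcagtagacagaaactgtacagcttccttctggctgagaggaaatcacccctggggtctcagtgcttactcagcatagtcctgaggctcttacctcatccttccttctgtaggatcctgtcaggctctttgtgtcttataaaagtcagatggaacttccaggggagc
*Ccl8*: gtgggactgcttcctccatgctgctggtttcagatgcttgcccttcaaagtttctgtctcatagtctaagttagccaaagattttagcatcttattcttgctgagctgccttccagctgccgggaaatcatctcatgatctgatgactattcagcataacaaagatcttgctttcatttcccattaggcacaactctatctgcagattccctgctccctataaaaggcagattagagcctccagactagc
*Ccl9*: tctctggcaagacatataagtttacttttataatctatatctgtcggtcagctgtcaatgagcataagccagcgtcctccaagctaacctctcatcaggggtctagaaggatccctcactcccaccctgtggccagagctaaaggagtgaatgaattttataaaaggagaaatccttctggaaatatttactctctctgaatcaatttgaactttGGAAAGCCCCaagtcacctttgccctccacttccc
*Cxcl9*: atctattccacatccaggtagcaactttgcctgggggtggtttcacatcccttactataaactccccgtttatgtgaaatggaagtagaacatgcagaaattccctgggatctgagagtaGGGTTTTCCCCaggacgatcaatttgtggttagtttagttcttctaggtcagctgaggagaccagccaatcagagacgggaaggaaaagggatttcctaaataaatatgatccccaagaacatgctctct
*Cxcl10*: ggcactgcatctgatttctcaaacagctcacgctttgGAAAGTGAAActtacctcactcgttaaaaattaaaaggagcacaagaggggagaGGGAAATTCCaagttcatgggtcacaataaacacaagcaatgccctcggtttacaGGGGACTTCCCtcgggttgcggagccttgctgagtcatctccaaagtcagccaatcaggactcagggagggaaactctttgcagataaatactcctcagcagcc
The NF-kB form was found in *Ccl9*, *Cxcl9* and *Cxcl10* among these 5, and in 45.8% of 32851 promoter windows of the same length overall. The interferon form was found in *Cxcl10*, at position -213 counted from the gene start (GAAAGTGAAA), and in 2.98% of all windows. The letters TATAAA on either strand were found in 4 of the 5, all but *Cxcl10*, and in 12.4% of all windows. CANNTG, the E-box form that bHLH factors such as *Twist1* bind, was found in all 5 and in 66.2% of all windows. A STAT form, TTC, any 3 bases and GAA, was found in none of the 5 and in 7.02% of all windows. Over the windows of the 41 members the shares were 53.7% (NF-kB), 7.32% (interferon), 24.4% (TATAAA), 73.2% (E-box) and 7.32% (STAT). A match describes letters only, and overlapping matches were merged in the capitals.

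Of the 57 members, 34 reached 1 FPKM in at least 1 library (24 ligands and 10 receptors). This is 59.6% of them, against 61.6% of all genes. Another 16 were above 0 but below 1 FPKM in every library, the highest of these being *Cxcr6* at 0.973 FPKM, and 7 were listed at 0 in all 4 libraries. Of the 7, 5 share sequence with near-identical copies, since in *Ccl19*, *Ccl21a*, *Ccl21b*, *Ccl21c* and *Ccl27b* at least 96.3% of the 75-base windows of the transcript also occur in a transcript of another gene, so their 0 may not be read as absence. *Ccl1* and *Ccl26* share no such window and were also listed at 0.

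*Cxcl12* was the highest member in every library. *Cxcl12* reached 311 FPKM in WT frontal, 421 in *Twist1*+/- frontal, 371 in the library labelled *Twist1*+/- parietal and 128 in WT parietal bone. WT parietal bone was low by 2.42-fold against WT frontal bone and by 2.90-fold against the library labelled *Twist1*+/- parietal, both under the 3-fold line. *Cxcl12* made up 52.8%, 60.7% and 61.2% of the summed FPKM of all members in those 3 libraries and 28.6% in WT parietal bone.

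*Cxcr4*, the receptor that *Cxcl12* signals through, came next in every library except WT parietal bone. It was at 84.7 FPKM in WT frontal, 66.1 in *Twist1*+/- frontal, 56.4 in the library labelled *Twist1*+/- parietal and 27.2 in WT parietal bone. The 3.12-fold difference between the WT bones was called, and the 2.08-fold difference between the parietal bones was not. *Ackr3*, the scavenging receptor of *Cxcl12*, went the other way. It was at 26.1, 28.8 and 44.9 FPKM in WT frontal, *Twist1*+/- frontal and the library labelled *Twist1*+/- parietal, and at 114 FPKM in WT parietal bone. The ratio of *Ackr3* to *Cxcl12* was 0.0842, 0.0685 and 0.121 in those 3 libraries and 0.891 in WT parietal bone.

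**Figure D1:**
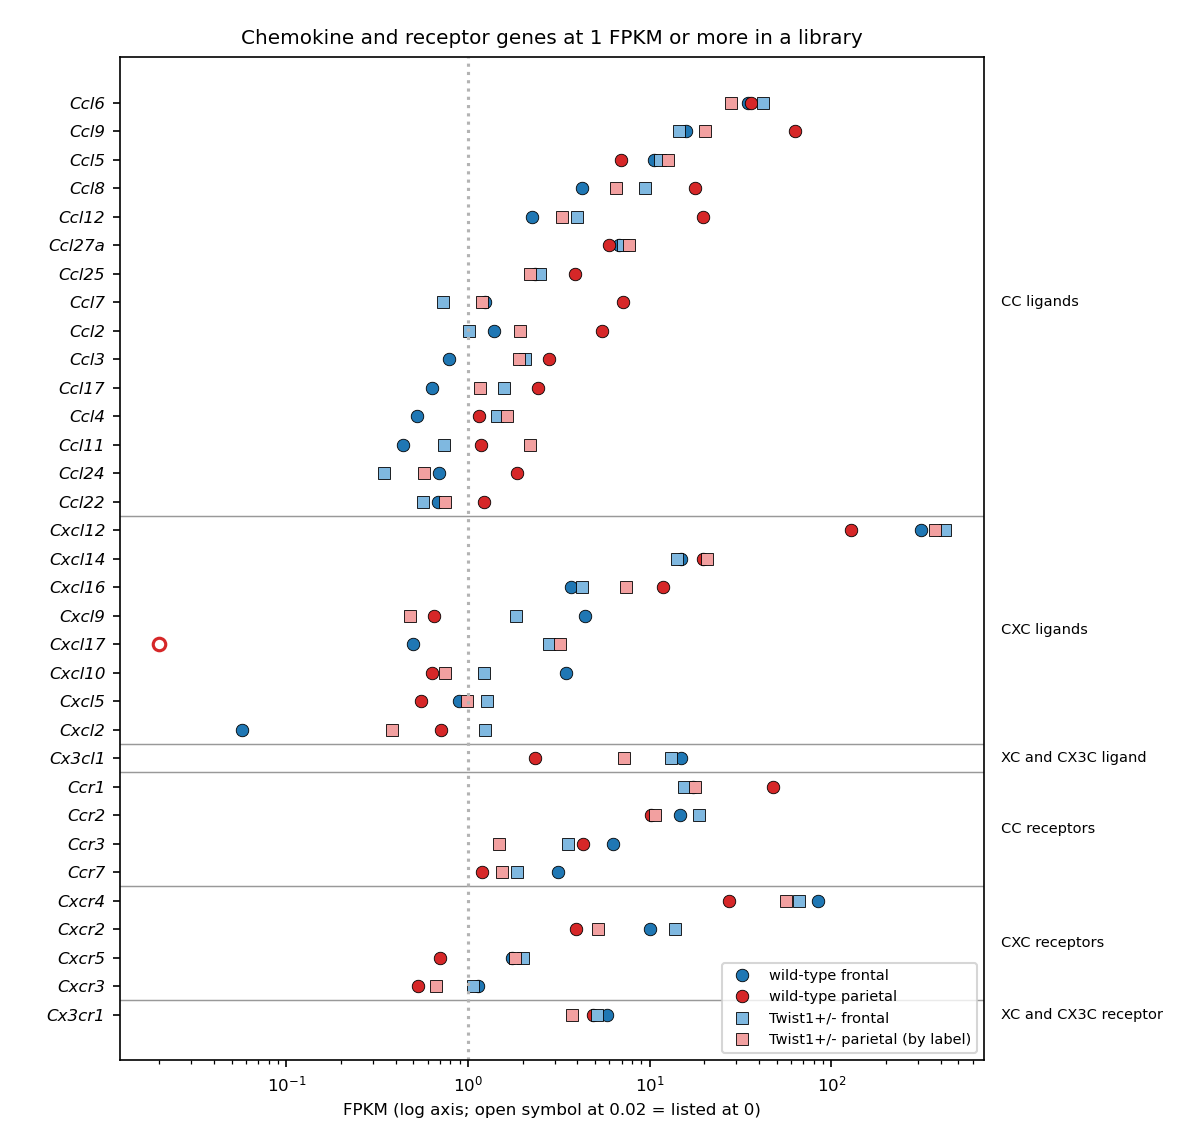
FPKM (log axis) of 33 chemokine and receptor genes at 1 FPKM or more in a library, by role, with 1 symbol per library and an open symbol where a gene is listed at 0. WT parietal bone (red circles) lies to the right for *Ccl12*, *Ccl7*, *Ccl9* and *Ccr1* and to the left for *Cxcl12*, *Cxcr4* and *Cx3cl1*.

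In WT parietal bone the order of the members was different, with *Ccl9* and *Ccr1* next in line behind *Cxcl12*. *Ccl9*, a CC ligand of myeloid cells and osteoclasts, was at 62.7 FPKM there, against 15.9 in WT frontal, 14.5 in *Twist1*+/- frontal and 20.2 in the library labelled *Twist1*+/- parietal. *Ccr1*, the receptor of *Ccl9* and its relatives, was at 47.5 FPKM there, against 17.3, 15.5 and 17.7. *Ccl6*, a close relative of *Ccl9* beside it in the genome, was at 35.0, 36.3, 42.3 and 27.9 FPKM in WT frontal, WT parietal, *Twist1*+/- frontal and labelled *Twist1*+/- parietal bone, a range of 1.52-fold.

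Between the WT bones, 12 of 31 members at or above 1 FPKM in the higher library were past 3-fold (38.7%), against 13.3% of all 14214 genes tested. In WT parietal bone 8 were higher (25.8%, against 4.07% of all genes) and 4 were lower (12.9%, against 9.20%). Of the 8 higher genes, 7 were CC ligands, of 15 tested, and the other was *Cxcl16*. The lower genes were *Cx3cl1*, *Cxcl9*, *Cxcl10* and *Cxcr4*, and among the 10 receptors tested *Cxcr4* alone was called. With a minimum of 10 FPKM in the higher library, 6 of 13 members were past 3-fold, against 8.26% of all genes. The median difference in log2(FPKM + 1) over the 29 members with a mean of at least 1 FPKM was 0.05, against -0.01 over all genes with such a mean, so the members moved in both directions about a level close to that of all genes.

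*Ccl12* and *Ccl7*, ligands of the monocyte receptor *Ccr2*, had the largest rises among these in plain ratio. *Ccl12* was at 19.5 FPKM in WT parietal bone and at 2.26, 3.996 and 3.31 FPKM in WT frontal, *Twist1*+/- frontal and labelled *Twist1*+/- parietal bone. The WT parietal value was 8.67 times the WT frontal one. *Ccl7* was at 7.15 FPKM against 1.24, 0.730 and 1.20 FPKM, a ratio of 5.78 between the WT bones. In both genes WT parietal bone lay above every other library by more than 3-fold.

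*Ccl2*, the main monocyte attractant, was at 5.49 FPKM in WT parietal bone and between 1.01 and 1.92 FPKM elsewhere, with a ratio of 3.95 between the WT bones. *Ccl8*, a further monocyte chemoattractant, was at 17.7 FPKM against 4.26 in WT frontal, 9.45 in *Twist1*+/- frontal and 6.51 in labelled *Twist1*+/- parietal bone, a ratio of 4.16. *Ccl9* had a ratio of 3.95. The receptor *Ccr2* did not share this pattern: it was at 10.1 FPKM in WT parietal bone, 14.7 in WT frontal, 18.7 in *Twist1*+/- frontal and 10.7 in labelled *Twist1*+/- parietal bone. On the axis of monocyte recruitment (*Ccl2*, *Ccl7*, *Ccl8*, *Ccl12*, *Ccr2*, *Cx3cl1* and *Cx3cr1*), 4 of 7 genes were higher, 1 (*Cx3cl1*) was lower and 2 were not called. Those called are among the 12 counted between the WT bones, where 4.07% of all genes were higher and 9.20% lower.

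The other higher ligands were less abundant. *Ccl3*, a ligand of *Ccr1*, was at 2.79 FPKM in WT parietal and 0.785 in WT frontal bone, a ratio of 3.56. *Ccl17*, a ligand of *Ccr4* on T cells, was at 2.42 and 0.634 FPKM, a ratio of 3.82. *Cxcl16*, a membrane-bound ligand of *Cxcr6* and scavenger of oxidised lipid, was at 11.9 and 3.68 FPKM, a ratio of 3.22, while *Cxcr6* stayed under 1 FPKM in every library. These 3 genes lay at 1.16 to 2.07 FPKM (*Ccl3* and *Ccl17*) and at 4.23 to 7.37 FPKM (*Cxcl16*) in the libraries labelled *Twist1*+/-.

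Among the lower genes, *Cx3cl1*, the membrane-tethered ligand of *Cx3cr1* on monocytes and microglia, was at 2.34 FPKM in WT parietal bone against 14.8 in WT frontal, 13.1 in *Twist1*+/- frontal and 7.27 in labelled *Twist1*+/- parietal bone. It was 6.33-fold lower than in WT frontal bone and lay more than 3-fold below every other library, the 1 member to do so among those at 1 FPKM or more in each of the other 3. Its receptor *Cx3cr1* stayed between 3.74 and 5.84 FPKM. The ratio of *Cx3cl1* to *Cx3cr1* was 2.54, 2.56 and 1.94 in WT frontal, *Twist1*+/- frontal and labelled *Twist1*+/- parietal bone and 0.480 in WT parietal bone.

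*Cxcl9* and *Cxcl10*, interferon-induced ligands of *Cxcr3* on T and NK cells, had their high value in WT frontal bone. *Cxcl9* was at 4.38 FPKM there and at 0.649, 1.83 and 0.483 FPKM in WT parietal, *Twist1*+/- frontal and labelled *Twist1*+/- parietal bone. *Cxcl10* was at 3.45 FPKM there and at 0.630, 1.22 and 0.752 FPKM. In both genes the order ran from WT frontal to *Twist1*+/- frontal to the parietal bones. The WT frontal value was 6.76-fold (*Cxcl9*) and 5.47-fold (*Cxcl10*) above WT parietal bone, and 2.39-fold and 2.83-fold above *Twist1*+/- frontal bone. *Cxcl11*, the other ligand of *Cxcr3*, was at 0.122 FPKM in WT frontal bone and listed at 0 in the others, and *Cxcr3* itself was at 1.14, 0.529, 1.07 and 0.663 FPKM in WT frontal, WT parietal, *Twist1*+/- frontal and labelled *Twist1*+/- parietal bone.

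Across all 4 libraries, WT parietal bone was the highest for 11 and the lowest for 11 of the 29 members with a mean of at least 1 FPKM. For all genes with such a mean it was the highest for 36.4% and the lowest for 34.0%, so these counts are near the background. Of the 34 members that reached 1 FPKM, 3 (*Ccl12*, *Ccl7* and *Ccl9*) were there more than 3-fold above each other library, against 1.21% of 14760 such genes. More than 3-fold below was 1 of the 34 (*Cx3cl1*), a count near the background of 2.69%.

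**Figure D2:**
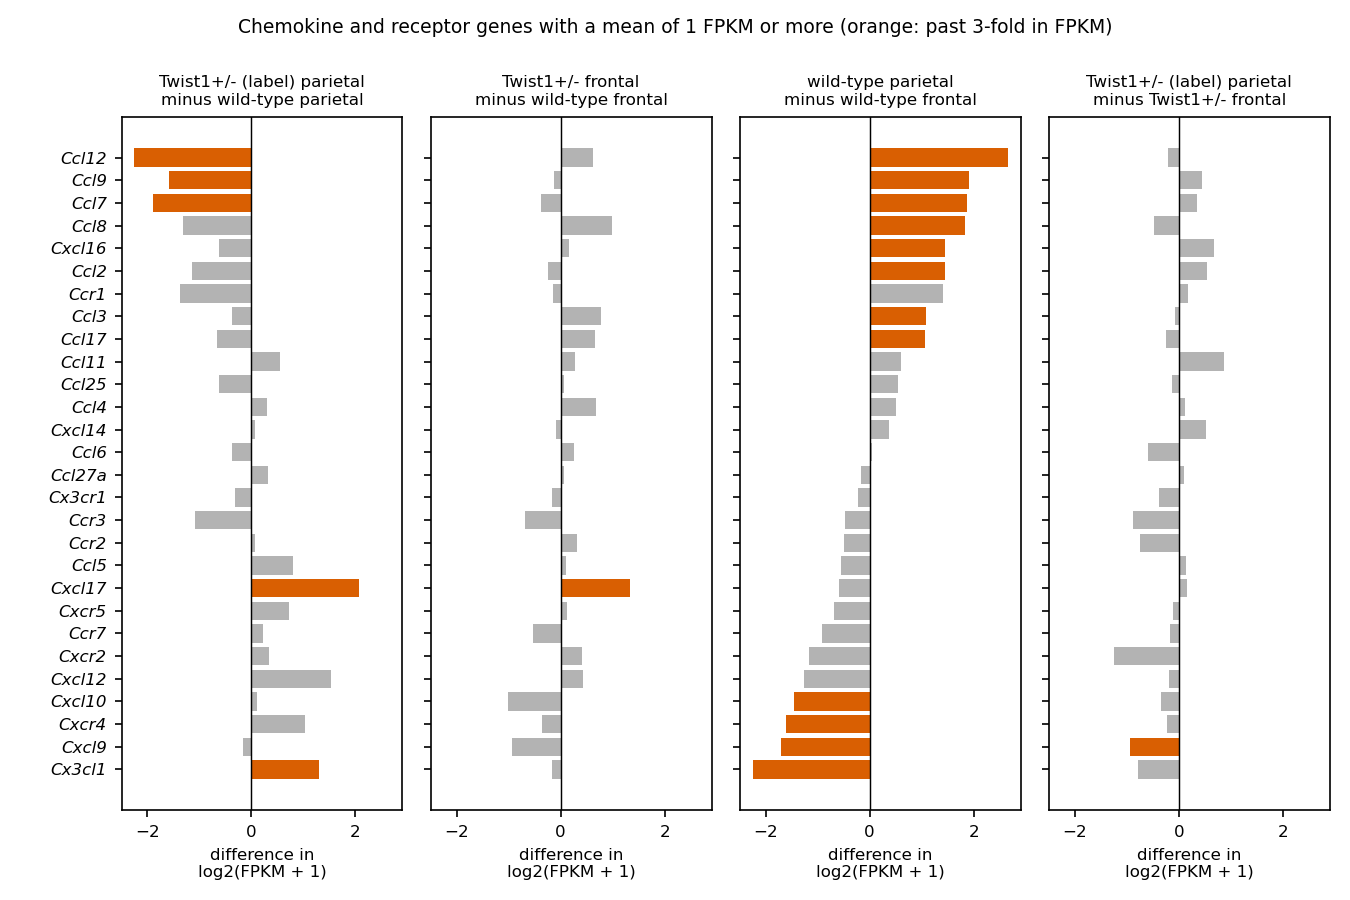
Difference in log2(FPKM + 1) for 28 members with a mean of at least 1 FPKM in the 4 comparisons, ordered by the difference between the WT bones, with bars in orange where the FPKM values were past 3-fold. Orange bars are 12 between the WT bones, 5 between the parietal bones and 1 in each of the other comparisons, and the *Cxcl2* and *Ccl24* calls fall outside the plot because their means are under 1 FPKM.

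Marker genes of other cells moved with the same pair of libraries, and their part in these differences was not tested. Fewer cells of a type and less RNA per cell cannot be told apart in bulk bone. Of 10 osteoclast markers, all were higher in WT parietal than in WT frontal bone and 6 were past 3-fold, and their summed level was 9256 FPKM against 2659, with 3305 in *Twist1*+/- frontal and 6774 in labelled *Twist1*+/- parietal bone. Of 10 monocyte and macrophage markers, 8 were higher and none was past 3-fold (1261 against 1330 FPKM, and 1340 and 1168 in the libraries labelled *Twist1*+/-). All of these markers were above 0 in every library.

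Of the 9 neutrophil markers found, all were lower there than in WT frontal bone and 4 were past 3-fold. Of 10 B-lineage markers 6 were past 3-fold lower and 2 were higher (*Igll1*, 44.0 against 22.9 FPKM, and *Vpreb1*, 21.7 against 11.5 FPKM), with a summed level of 126 FPKM against 241, 231 and 196 in WT frontal, *Twist1*+/- frontal and labelled *Twist1*+/- parietal bone. Of 10 skeletal muscle markers 9 were past 3-fold higher, with summed levels of 121 FPKM in WT frontal, 3639 in WT parietal, 1419 in *Twist1*+/- frontal and 1844 in labelled *Twist1*+/- parietal bone. Of 10 meninges and brain markers 8 were past 3-fold lower, as were 6 of 10 nasal epithelium markers. Of 10 keratinocyte markers none was past 3-fold. The counts of markers past 3-fold lower were 6 of 10 for platelets and megakaryocytes, 4 of 10 for T and NK cells, 4 of 10 for dendritic cells, 1 of 10 for endothelium and 1 of 10 for marrow stroma. Some receptors of these cells had lower values in the same library. *Cxcr2*, which guides neutrophils, was at 3.92 FPKM in WT parietal and 10.1 in WT frontal bone, and *Cxcr5*, which guides B cells to follicles, was at 0.706 and 1.75 FPKM. *Ccr7*, which guides T and dendritic cells to lymph nodes, was at 1.19 and 3.13 FPKM. All 3 differences were under 3-fold. *Cxcr6*, a receptor of T and NK cells, had the higher value in WT parietal bone, at 0.973 against 0.250 FPKM, both under 1 FPKM.

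Between the parietal bones, 7 of 29 members were past 3-fold (24.1%), against 8.19% of all 13914 genes. In the library labelled *Twist1*+/- parietal 2 were higher (6.90%, against 5.25%) and 5 were lower (17.2%, against 2.94%). After scaling all genes to the same median ratio the split was 3 higher and 4 lower, with *Ccl9* under the line and *Cxcl12* past it. With the median of genes near in GC content taken off, it was 2 higher and 3 lower, and no share of all genes is given for either setting. The lower genes included *Ccl12*, *Ccl7*, *Ccl9* and *Ccl24*, and the higher ones were *Cx3cl1* and *Cxcl17*. This comparison shares the WT parietal library with the comparison of the WT bones, so the lists are not separate evidence. Markers moved in this comparison too. Past 3-fold higher in labelled *Twist1*+/- parietal bone were 8 of 10 nasal epithelium, 5 of 10 meninges and brain and 4 of 10 keratinocyte markers. So were 3 of 10 for the B lineage, 3 of 10 for platelets, 2 of 9 for neutrophils and 2 of 10 for T and NK cells. Dendritic cells, osteoblasts and muscle had 1 of 10 each, and muscle also had 1 past 3-fold lower there. Of the osteoclast markers 9 of 10 were lower there, none past 3-fold. Of the monocyte and macrophage markers 8 of 10 were lower there, with 1 past 3-fold (*Mrc1*, 9.58 against 29.1 FPKM). Their part in the chemokine differences was not tested. With a minimum of 10 FPKM, 2 of 11 members (*Ccl12* and *Ccl9*) were past 3-fold, against 4.41% of all genes.

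*Ccl12* was 5.91-fold and *Ccl7* 5.95-fold lower in the library labelled *Twist1*+/- parietal than in WT parietal bone. *Ccl9* was 3.10-fold lower, just past the line. *Ccl24*, an eosinophil attractant and ligand of *Ccr3*, was at 1.86 FPKM in WT parietal and 0.571 in labelled *Twist1*+/- parietal bone, with 0.689 and 0.344 FPKM in the frontal bones.

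Several members came close to the line without crossing it. *Ccr3*, the eotaxin receptor of eosinophils, was at 1.49 FPKM in labelled *Twist1*+/- parietal and 4.27 in WT parietal bone, a 2.86-fold difference, with 6.30 and 3.57 FPKM in the WT and *Twist1*+/- frontal bones. *Ccl2* was 2.86-fold, *Ccl8* 2.72-fold and *Ccr1* 2.68-fold lower in labelled *Twist1*+/- parietal bone. *Cxcl12* was 2.90-fold and *Cxcr5* 2.56-fold higher.

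*Cx3cl1* was 3.10-fold higher in labelled *Twist1*+/- parietal than in WT parietal bone. *Cxcl17*, a chemokine of mucosal epithelium, was listed at 0 in WT parietal bone and was at 3.21 FPKM in labelled *Twist1*+/- parietal, 2.78 in *Twist1*+/- frontal and 0.499 in WT frontal bone. No fold is given against the 0. A list of 10 nasal epithelium markers had summed levels of 22.9, 1600, 1461 and 301 FPKM in the same libraries, and its part in the *Cxcl17* values was not tested. Of that list *Scgb1a1* was listed at 0 in every library.

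The parietal ratio also moved with the GC content of the gene. Over 12600 genes the median difference in log2(FPKM + 1) was -0.49 in the lowest of 20 groups by GC content and 0.58 in the highest. In the same groups it was -0.40 and 0.38 between the bones labelled *Twist1*+/-, 0.07 and -0.23 between the WT bones, and 0.01 and 0.08 between the frontal bones. Of the 57 members, 55 have a GC value, with a median of 47.6% against 49.6% for all genes with a value. *Ccl9* and *Ccl12* are at 42.1%, *Ccl7* at 42.9% and *Ccr1* at 39.1%, while *Cx3cl1* is at 57.1%. When the median log2 ratio of genes near in GC content was taken off, *Ccl9* (-1.06) and *Cx3cl1* (1.13) were among those that fell under the 3-fold line. *Ccl12* (-1.98), *Ccl7* (-2.01) and *Ccl24* (-1.63) stayed past it, and *Cxcl12* (1.61) crossed it.

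**Figure D3:**
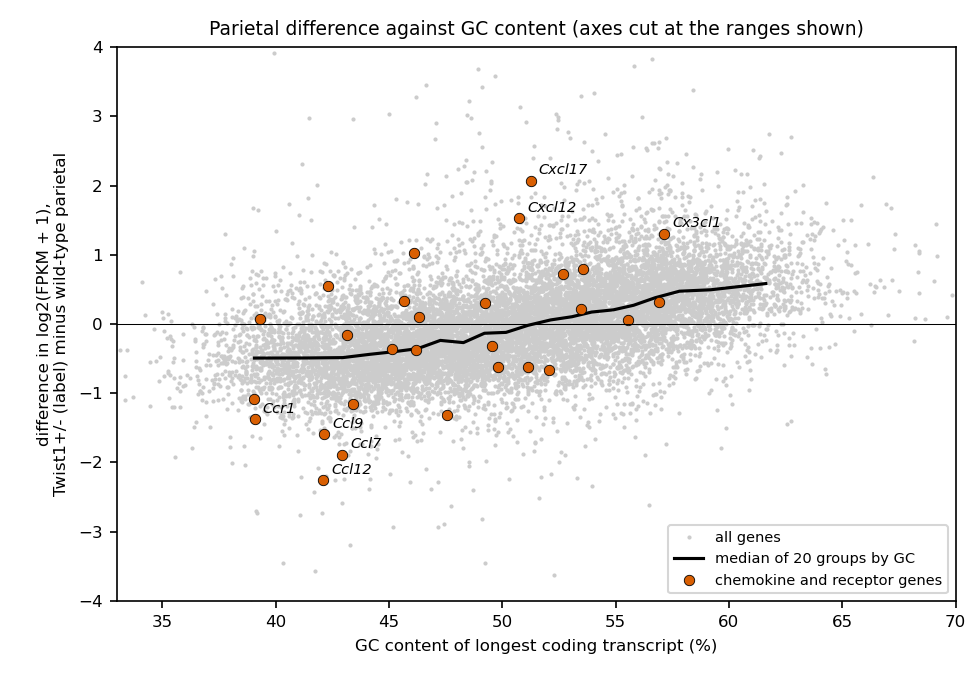
Difference in log2(FPKM + 1) between labelled *Twist1*+/- and WT parietal bone against the GC content of the longest coding transcript (%), for the 12600 genes compared (grey, with axes cut at the ranges shown), the median of 20 groups of genes (black line) and members with a mean of at least 1 FPKM (orange). The line climbs from -0.49 to 0.58, and *Ccl12*, *Ccl7* and *Ccl9* lie below it while *Cxcl12* and *Cxcl17* lie above it.

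Between the frontal bones, 2 of 31 members were past 3-fold (6.45%), against 3.89% of all 14341 genes. Both were higher in *Twist1*+/- frontal bone (3.17% of all genes were higher), and none was lower (0.725% of all genes). They were *Cxcl17*, at 2.78 against 0.499 FPKM (5.56-fold), and *Cxcl2*, at 1.24 against 0.0571 FPKM (21.6-fold). *Cxcl2*, a ligand of *Cxcr2* that draws neutrophils, was at 0.714 and 0.380 FPKM in WT and labelled *Twist1*+/- parietal bone, so the lowest value is the one in WT frontal bone. Between the frontal bones all 10 muscle markers, 6 of 10 nasal epithelium markers and 2 of 10 keratinocyte markers were past 3-fold higher in *Twist1*+/- bone. There 4 of 10 meninges and brain markers were past 3-fold lower, and the part of these markers was not tested. With a minimum of 10 FPKM, none of 10 members was past 3-fold, against 2.24% of all genes. *Cxcl12* was 1.35-fold higher in *Twist1*+/- frontal bone and *Cxcr4* 1.28-fold lower.

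Between the bones labelled *Twist1*+/-, 2 of 32 members were past 3-fold (6.25%), against 4.09% of all 14305 genes. *Cxcl9* was 3.80-fold and *Cxcl2* 3.25-fold lower in parietal than in frontal bone (3.24% of all genes were lower), and none was higher (0.846% of all genes). At 10 FPKM or more none of 10 was past 3-fold, against 1.75% of all genes. The 8 members past 3-fold higher in WT parietal than in WT frontal bone had ratios of 3.22 to 8.67 there. In the libraries labelled *Twist1*+/- their ratios of parietal to frontal bone were 0.828 (*Ccl12*), 1.65 (*Ccl7*), 0.689 (*Ccl8*) and 1.89 (*Ccl2*). The others were at 1.40 (*Ccl9*), 0.924 (*Ccl3*), 0.737 (*Ccl17*) and 1.74 (*Cxcl16*). These genes were picked for a high value in WT parietal bone, which this pair leaves out, so the choice itself favours lower ratios here. When the library labelled *Twist1*+/- parietal was set against WT frontal bone in place of WT parietal bone, a choice made after the data were seen, 6 members were past 3-fold in place of 12. *Ccl11*, *Ccl4* and *Cxcl17* were higher and *Ccr3*, *Cxcl9* and *Cxcl10* lower, and 2 of the 6 (*Cxcl9* and *Cxcl10*) were among the 12. No share of all genes is given for this pair of libraries, so the fall from 12 to 6 is not set against a background. These values are set side by side, and with 1 library per condition the difference between them was not tested.

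Genomic position, which did not enter the choice of members, is shown because 14 of the 55 members with a single position lie on chromosome 11, 11 on chromosome 5 and 11 on chromosome 9 (mm9). *Ccl2*, *Ccl7*, *Ccl11*, *Ccl12* and *Ccl8* lie in that order within 81.2 kb of chromosome 11, from 81849073 to 81930301. All 5 were higher in WT parietal than in WT frontal bone, as were 49.3% of all genes with a mean of at least 1 FPKM. Past 3-fold were 4 of them, against 4.07% of all genes. These 4 are among the 8 higher genes already counted between the WT bones, so they are not separate evidence. *Ccl11*, the eotaxin in the middle of the run, was at 0.438 FPKM in WT frontal, 1.18 in WT parietal, 0.737 in *Twist1*+/- frontal and 2.19 in labelled *Twist1*+/- parietal bone, the 1 gene of the run whose highest value was not in WT parietal bone.

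A second run on chromosome 11, from 83339280 to 83478185, holds *Ccl5*, *Ccl9*, *Ccl6*, *Ccl3* and *Ccl4*, and its genes did not move together. Between the WT bones *Ccl9* and *Ccl3* were past 3-fold higher in parietal bone, *Ccl4* was 2.21-fold higher, and *Ccl6* had a ratio of 1.04. *Ccl5*, a ligand made by T and NK cells and platelets, was lowest in WT parietal bone at 6.92 FPKM, against 10.6, 11.5 and 12.7 FPKM in WT frontal, *Twist1*+/- frontal and labelled *Twist1*+/- parietal bone.

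**Figure D4:**
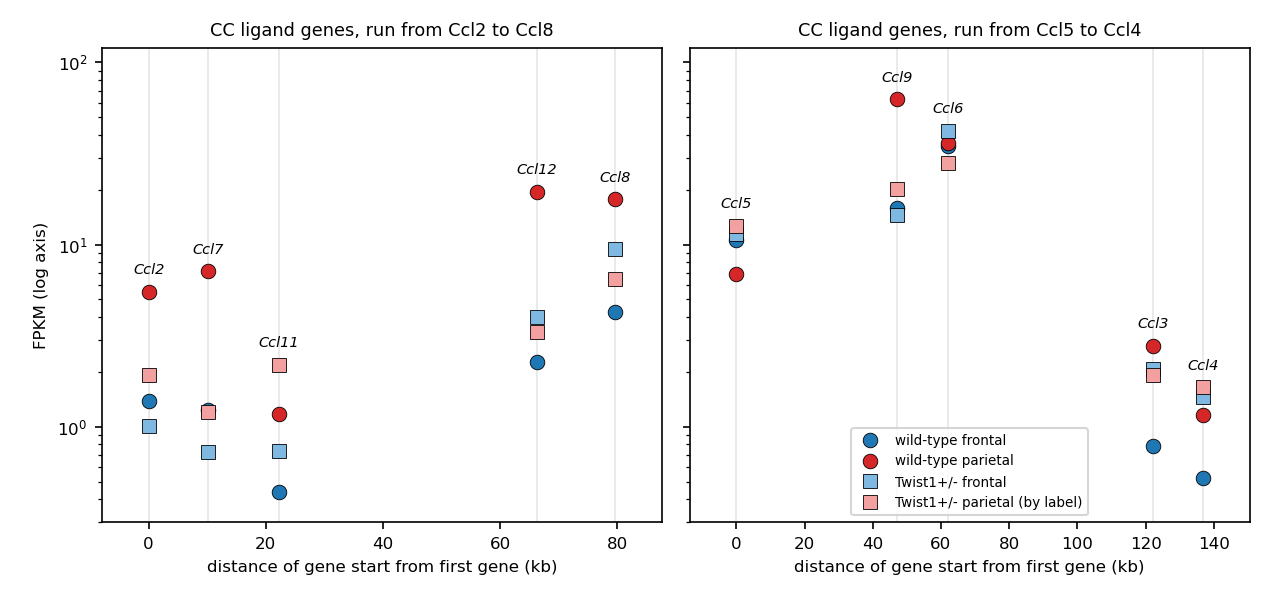
FPKM (log axis) of the 10 CC ligand genes of both runs on chromosome 11 against the distance of the gene's lower coordinate from that of the first gene of the run (kb), with 1 symbol per library. WT parietal bone is the highest library for *Ccl2*, *Ccl7*, *Ccl12* and *Ccl8* on the left and for *Ccl9* and *Ccl3* on the right, but not for *Ccl11*, *Ccl5*, *Ccl6* or *Ccl4*.

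On chromosome 8, *Ccl22*, *Cx3cl1* and *Ccl17* lie within 66.4 kb, from 97269490 to 97335935, with *Cx3cl1* in the middle. *Ccl17* was 3.82-fold higher in WT parietal than in WT frontal bone and *Ccl22*, a related ligand of *Ccr4*, had a ratio of 1.79 (1.23 and 0.688 FPKM). *Cx3cl1* between them was 6.33-fold lower.

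The remaining members at or above 1 FPKM were not called in any comparison. *Cxcl14*, a ligand of skin and bone mesenchyme, was between 14.1 and 20.6 FPKM, *Ccl27a* between 5.95 and 7.70 FPKM and *Ccl25*, the thymus and gut ligand of *Ccr9*, between 2.18 and 3.89 FPKM. For *Ccl27a* 32.4% of the windows are shared with other genes, and its level is therefore uncertain. *Cxcl5*, which attracts neutrophils, was between 0.551 and 1.27 FPKM.

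Other genes of the pathway were a list of 20 chosen with earlier results known, of which 18 reached 1 FPKM in each comparison. Between the WT bones 1 of the 18 was past 3-fold higher in parietal bone (*Ackr3*, a log2 ratio of 2.13). Past 3-fold lower was 1 (*Dpp4*, a peptidase that trims chemokines, at 1.88 against 6.75 FPKM). In either direction 13.3% of all genes were past 3-fold, so these calls do not set the list apart from all genes. None was called in the other comparisons. *Pf4* and Ppbp, the platelet chemokines whose names fall outside the rule, were at 132 and 215 FPKM in WT frontal, 274 and 160 in WT parietal, 133 and 190 in *Twist1*+/- frontal and 118 and 97.8 in labelled *Twist1*+/- parietal bone. *Ackr1*, which carries chemokines across venules and on red cells, was at 41.2, 17.4, 39.4 and 27.0 FPKM in the same order, and *Ackr4*, which clears *Ccl19*, Ccl21 and *Ccl25*, was between 23.1 and 30.2 FPKM.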

How the data were processed

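Total RNA of frontal and parietal bones was selected for poly(A), and strand-specific libraries were read from a single end. The authors aligned the reads to mm9 with STAR 2.4.2a and computed the deposited FPKM values with Cuffdiff (Cufflinks 2.2.1) on the iGenomes annotation, and the scaling option and any pooling of replicates are not given in the sources used here. Libraries were grouped by their labels.

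The members and all gene lists (axes, pathway genes and 14 marker lists) were chosen with earlier results of these data known. Ratios of FPKM were formed in 4 comparisons, with no test because each group is 1 library. The calling step was tested on simulated data. A gene listed at 0 was called when the other value reached 1 FPKM. Members at or above 1 FPKM in a library are named, except 1 whose results are not reported here, and those past 3-fold are described first. GC content, 75-base windows and mm9 positions came from GENCODE M1 coding transcripts and genes, matched by symbol (GC for 19341 of 23946 genes), and upstream windows from RefSeq (GRCm38.p6). Alternatives were pseudocounts, floors, folds, scaling, shared windows, the filter on the mean and GC content. Replacing WT parietal bone was added after seeing the data. Python 3.11.15, pandas 2.3.3 and numpy 2.4.6 were used.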

Additional observations from a re-analysis of the deposited data

How the results depend on the processing

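With 1 library per group no replicate could be left out, and no paired analysis was possible because no group has a replicate to share a number with. The counts of members past 3-fold are given here for parietal bones, frontal bones, WT bones and bones labelled *Twist1*+/-, in that order. They were 7, 2, 12 and 2 and became 4, 0, 7 and 0 on the scale of FPKM + 1. Without a floor they were 12, 8, 21 and 6, and with a floor of 10 FPKM 2, 0, 6 and 0. They were 15, 8, 21 and 5 at 2-fold and 1, 1, 1 and 0 at 8-fold. A pseudocount of 0.1 gave 1 for the last, and leaving out members that share 75-base windows gave 1 for the frontal bones and 1 for the last. Scaling, GC content and leaving out zeros left each count, taken over both directions, within 1.5 times. With GC subtracted the lower calls between the parietal bones went from 5 to 3, with 4 of the 7 members still called. After scaling the split between the parietal bones was 3 higher and 4 lower in place of 2 and 5, and with GC subtracted the last comparison had 1 higher and 1 lower in place of 0 and 2. When labelled *Twist1*+/- parietal replaced WT parietal bone against WT frontal bone, 6 members were past 3-fold in place of 12. Shares of all genes were formed for the 4 comparisons at the main setting and with the floor of 10 FPKM only. The other counts given here therefore have no background beside them. The median difference between the parietal bones was -0.15, or -0.36 with a pseudocount of 0.1 and 0 over all members, and that between the bones labelled *Twist1*+/- was -0.18, or -0.00505 over all members. No called log2 ratio changed sign. Of the ratios of single members that left their side of 3-fold, 12 did so at a pseudocount of 1, *Cxcl2* and *Ccl24* among them. Members near 1 FPKM rest on few reads, and depth sets their limit.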

Other observations

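Several lymphoid and T cell members were low in all 4 bones, while others of these axes, such as *Ccl25* and *Cxcl16*, were above 1 FPKM in every library. *Cxcl13* and the receptors *Ccr4*, *Ccr6*, *Ccr8*, *Ccr9* and *Ccr10* stayed under 1 FPKM in every library, as did the *Ccr6* ligand *Ccl20* and the mucosal ligand *Ccl28*. *Xcl1*, a ligand of NK and T cells, was at 0.864 FPKM in WT frontal and 0.601 in *Twist1*+/- frontal bone and at 0.112 and 0.110 FPKM in WT and labelled *Twist1*+/- parietal bone. Its receptor *Xcr1*, a marker of cross-presenting dendritic cells, was between 0.0646 and 0.217 FPKM. The neutrophil ligands *Cxcl1* and *Cxcl3* were under 1 FPKM in every library, although *S100a8*, a neutrophil granule gene, was between 4373 and 9048 FPKM.

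Ratios within a library were formed after the levels were seen. *Cxcr4*, which itself spanned 3.12-fold, was set against *Cd79b*, a gene of the list of 10 B-lineage markers. The ratio was 1.14, 0.967, 0.934 and 1.01 in WT frontal, WT parietal, *Twist1*+/- frontal and labelled *Twist1*+/- parietal bone. Other markers of that list differed, with *Ms4a1* at 20.6, 1.40, 17.7 and 6.97 FPKM and *Igll1* at 22.9, 44.0, 24.9 and 24.9 FPKM. No ratio of *Cxcr4* to them was formed. The ratio of *Ccl9* to the osteoclast protease gene Ctsk was 0.0155, 0.0131, 0.0118 and 0.00777 in the same order, with WT frontal bone the highest. Against *Acp5*, another osteoclast gene, it was 0.0145, 0.0187, 0.0104 and 0.00676, with WT parietal bone the highest. Against the monocyte and macrophage receptor gene *Csf1r*, *Ccl9* was at 0.229, 0.519, 0.187 and 0.188 and *Ccl12* at 0.0325, 0.162, 0.0517 and 0.0307, with WT parietal bone the highest for both. The ratio of *Ccl8* to *Mrc1*, a gene of resident macrophages, was 0.261, 0.609, 0.652 and 0.680, with WT frontal bone the lowest. Against *C1qa*, another macrophage marker, *Ccl8* was at 0.0635, 0.180, 0.173 and 0.0862, with WT parietal bone the highest. The ratio of *Ccl12* to *Mrc1* was 0.138, 0.672, 0.276 and 0.345, also highest in WT parietal bone. The ratio of *Cxcl12* to Pdgfra, a gene of stromal cells, was 11.1, 3.62, 17.2 and 16.5, so WT parietal bone was low on this scale too. Which cells carried these transcripts was not tested.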
